A study of Mus musculus with 2 samples.

Results

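Plasmacytoid dendritic cells were taken here as the cells that passed a rule on 13 genes in single-cell counts of sorted mouse retinal immune cells. A cell had to carry at least 4 UMIs (unique molecular identifiers, each counting 1 captured transcript) of Siglech, Ccr9, Klk1 and Cox6a2 together, with at least 2 of them from Ccr9, Klk1 or Cox6a2. It also had to hold under 15 UMIs of 6 microglia genes (P2ry12, Tmem119, Gpr34, Olfml3, Sparc and Sall1) per 10000 UMIs, and under 2 UMIs of the T cell receptor chains Cd3d, Cd3e and Cd3g. The rule found 73 of 4385 cells, of which 69 lay in the Igfbpl1 library and 4 in the PBS library.

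The study sorted CD45-positive cells from the retinas of B6 mice with glaucoma induced by microbeads, which block the outflow of the eye and raise its pressure. The mice received PBS or Igfbpl1, a protein related to the binding proteins of insulin-like growth factor, and all of them had glaucoma. Each group gave 1 library, for which the cells of 10 mice of 8 to 10 months of age were pooled, so 1 pool stands for each treatment and differences between libraries and treatments cannot be told apart. The PBS library held 1055 cells with a median of 3433 UMIs and the Igfbpl1 library 3330 cells with a median of 2355.5 UMIs. No barcode was shared between the libraries. With 1 library per group no difference was tested. Every 95% interval given in brackets is exact (Poisson for expression, conditional binomial for ratios, Clopper-Pearson for shares) and covers counting error only.

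Plasmacytoid dendritic cells are a rare lineage of the bone marrow that circulates in blood and patrols lymphoid organs. They sense viral RNA and DNA in endosomes through Toll-like receptors 7 and 9, and are known for secreting large amounts of type I interferon. The transcription factor TCF4, an E protein that binds DNA letters called E-boxes, sets and keeps their identity, while its antagonist ID2 directs precursors towards conventional dendritic cells. They share several genes with lymphocytes, among them rearranging antigen receptor loci. Siglech encodes a surface lectin, Ccr9 a chemokine receptor for gut and thymus homing, Klk1 a secreted kallikrein protease and Cox6a2 a subunit of mitochondrial cytochrome c oxidase.

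The promoters of Siglech, Ccr9 and Klk1, which were among the genes that chose the cells, and of Bst2, which was not, are shown because TCF4 is an E protein and its transcript was abundant in these cells. Each is the 250 bases before the RefSeq transcription start on GRCm38.p6, written 5′ to 3′ on the gene's strand, with every E-box (CANNTG, which reads the same pattern on both strands) in capitals.
Siglech, chr7:55767934-55768183, plus strand: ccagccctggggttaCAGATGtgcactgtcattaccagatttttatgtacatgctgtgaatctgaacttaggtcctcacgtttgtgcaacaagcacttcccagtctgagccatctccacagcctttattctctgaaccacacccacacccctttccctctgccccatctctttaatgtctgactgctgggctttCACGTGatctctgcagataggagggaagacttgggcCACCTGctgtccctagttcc
Ccr9, chr9:123766961-123767210, plus strand: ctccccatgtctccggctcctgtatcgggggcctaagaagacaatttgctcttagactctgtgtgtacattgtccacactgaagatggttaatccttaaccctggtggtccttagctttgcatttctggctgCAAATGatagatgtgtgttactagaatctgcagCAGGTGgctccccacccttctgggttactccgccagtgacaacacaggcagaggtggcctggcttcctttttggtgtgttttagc
Klk1, chr7:44225110-44225359, plus strand: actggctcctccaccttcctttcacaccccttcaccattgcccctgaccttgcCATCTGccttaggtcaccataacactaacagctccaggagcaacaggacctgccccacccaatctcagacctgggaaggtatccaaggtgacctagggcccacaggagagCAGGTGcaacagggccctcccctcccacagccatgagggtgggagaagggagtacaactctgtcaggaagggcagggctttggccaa
Bst2, chr8:71537473-71537722, minus strand: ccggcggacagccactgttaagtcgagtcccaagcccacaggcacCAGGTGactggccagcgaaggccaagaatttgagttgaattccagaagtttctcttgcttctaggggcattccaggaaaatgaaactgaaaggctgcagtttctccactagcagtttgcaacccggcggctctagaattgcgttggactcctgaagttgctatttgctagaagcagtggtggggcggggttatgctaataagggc
Siglech held 3 E-boxes, Ccr9 2, Klk1 2 and Bst2 1, and each window held 1 of the form CACCTG or its reverse complement CAGGTG. Of 29 genes looked up (Siglech, Ccr9, Klk1, Cox6a2, Bst2 and the 24 named below as highest against other cells), 22 had a promoter in the RefSeq table. Of those, 17 held an E-box (77.3%) and 8 held CACCTG or CAGGTG (36.4%). Among all 27025 promoters of the table the shares were 66.0% and 17.1%. A match is a description of letters and not a binding site.

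The genes that chose the cells are given as levels only. In the 69 Igfbpl1 cells, Siglech stood at 1365 CPM (a gene's UMIs summed over a class, per 1000000 UMIs of that class; 1231 to 1510), Cox6a2 at 1249 CPM, Ccr9 at 894 CPM and Klk1 at 272 CPM. Of the 69 cells, 14 carried UMIs of all 4 genes, 40 of 3, 14 of 2 and 1 of only 1. The sum of the 4 genes ran from 4 to 55 UMIs per cell with a median of 13. Klk1 was the least widely seen, with UMIs in 23 cells. In the other 3261 cells of the library Siglech stood at 231 CPM, most of it in microglia, which are known to express it: the cells over the rule's microglia limit, called microglia-gated here, held 511 CPM.

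The label rested on 6 markers, and the pair that the rule had not used, Bst2 and Tcf4, was also high. Bst2, which encodes the virus-tethering surface protein also used as a plasmacytoid antigen, had UMIs in 69 of 69 cells, from 1 to 45 per cell with a median of 16. It stood at 4040.5 CPM (3807 to 4285) against 508 CPM in other cells, a 7.96-fold ratio (7.449 to 8.498). Tcf4 had UMIs in 66 of 69 cells, from 0 to 25 with a median of 4, and stood at 1469.9 CPM against 211 CPM (6.95-fold, 6.23 to 7.74). No class of other cells reached these levels: the highest were 1208 CPM of Bst2 in 40 monocyte-gated cells and 377 CPM of Tcf4 in the ungated remainder. With every cell thinned to 1000 UMIs, Tcf4 was seen in 72.5% of the 69 cells and in 2.95% of T-gated cells, a class not known for it. Their median depths before thinning were 3184 and 2423 UMIs. T-gated cells held the least Tcf4 of any class (51.8 CPM), while microglia-gated cells held 300 CPM.

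**Figure D1:**
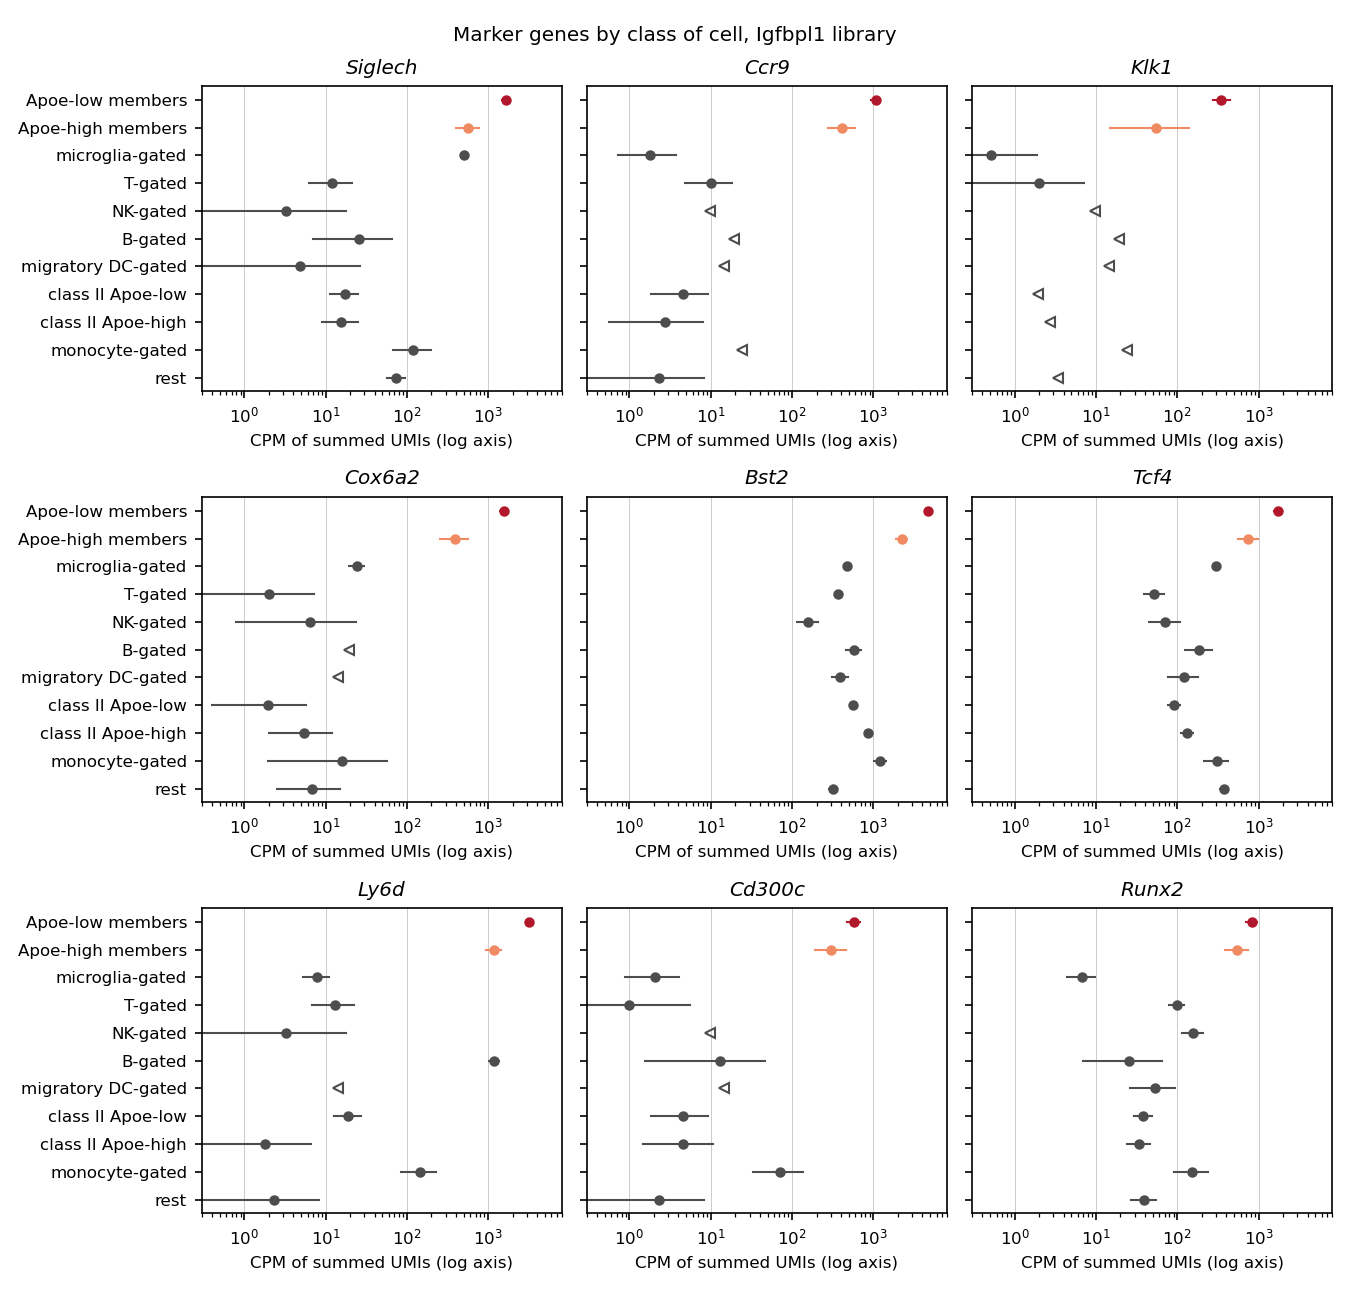
Expression of 9 genes (CPM of summed UMIs, log axis) in the plasmacytoid cells, split by their Apoe UMIs, and in 9 other classes of the Igfbpl1 library. Points are levels, lines exact Poisson 95% intervals, and open triangles the limit that 0 UMIs allow. Siglech, Ccr9, Klk1 and Cox6a2 chose the cells. Bst2 and Tcf4 did not and stood at 4681 and 1729 CPM in the 59 Apoe-low cells.

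A split among the cells touches many of the values below. Of the 69 cells, 10 held Apoe, a lipid carrier gene of macrophages, at 106 to 348 UMIs per 10000, while the other 59 held 0 to 13.3, so that no cell lay between. The 10 Apoe-high cells were deep, with 5563 to 10536 UMIs and a median of 7215, against a median of 3097 in the 59. In the Apoe-high cells Lyz2, the lysozyme of myeloid cells, stood at 4876 CPM and the complement gene C1qa at 2768 CPM, while in the Apoe-low cells they stood at 29.5 and 118 CPM. The Apoe-high cells still held plasmacytoid genes, with Bst2 at 2245 CPM, Ly6d at 1171 CPM and Cd300c at 303 CPM, which are each below the levels of the 59. In class II Apoe-high cells, which hold the most Apoe, Ly6d stood at 1.83 CPM and Cd300c at 4.56 CPM. Of the 10, 8 lay in the same cluster as the 59 and 1 was called a doublet. The other 2 had 0 UMIs of Ccr9, Klk1, Tcf4, Ly6d and Cd300c. One of them entered the class with 2 UMIs each of Siglech and Cox6a2, the other with 5 of Cox6a2 alone. Counts of genes called higher or lower are given below with and without the 10 cells where they differ.

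Plasmacytoid cells made up 2.07% of the Igfbpl1 library (69 of 3330 cells, 1.62 to 2.62%) and 0.379% of the PBS library (4 of 1055, 0.103 to 0.968%). Without Apoe-high cells 59 (1.77%) and 3 cells were left. Clustering placed 67 of the 69 Igfbpl1 cells and 2 of the 4 PBS cells in 1 of 21 clusters, which held 9 further Igfbpl1 cells. Of those 9, 7 had 3 to 5 UMIs of the 4 genes but under 2 of Ccr9, Klk1 and Cox6a2. Of the PBS cells, those numbered 1 and 3 had 10 and 8 UMIs of Bst2, 9 and 12 of Tcf4 and 5 and 4 of Ly6d. PBS cell 2 owed its place to 24 UMIs of Cox6a2, with 0 of Siglech, Bst2 and Ly6d. PBS cell 4 held 7 UMIs of Siglech and 61 of Apoe, with 0 of Ly6d. Thus 2 PBS cells carried the wider plasmacytoid pattern, too few for a comparison of expression between libraries.

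At the edge of the rule, 12 cells with 4 to 7 UMIs of the 4 genes held Ly6d at 1081 CPM and Bst2 at 2603 CPM. The 57 cells with 8 or more held 3027 and 4394 CPM. Just outside, 6 cells had 4 or more UMIs but under 2 of the last 3 genes, and they held Ly6d at 1099 CPM and Bst2 at 2999.96 CPM. Another 7 cells were over the microglia limit and held 114 and 716 CPM. The rule therefore left a few like cells out, and these values carry no test.

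Against the other 3261 cells of the same library, 305 of 3119 genes measured were at least 2-fold higher in the plasmacytoid cells (9.78%) and 313 at least 2-fold lower (10%), with 10 CPM added to both sides. A gene counted as measured at a mean of 50 CPM and 20 UMIs. With the 10 Apoe-high cells left out the counts were 394 and 408, of which 299 and 281 were shared with the full set. Against other cells outside the microglia gate 180 genes were lower, of which 105 were among the 313, and with the gated classes weighted equally 226 were lower, of which 157 were among them. The median log2 ratio of all genes measured was 0.07. Since the cells were selected on this contrast, these counts describe the class and test nothing.

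With the genes of the rule left out, the gene with the largest log2 ratio was Ly6d (chr15:74762056-74763620, minus strand), a surface protein of early lymphoid progenitors. It had 0 to 42 UMIs per cell with a median of 8, and stood at 2643 CPM (2455 to 2842) against 30.5 CPM, a ratio of 86.7 (75.5 to 99.9). Cd300c (chr11:114956116-114969157, minus strand), a receptor of the CD300 family, had UMIs in 57 cells and stood at 507 CPM against 3.70 CPM (137-fold, 93.6 to 206). After thinning, Ly6d was seen in 69.6% of the cells and 0.656% of T-gated cells, and Cd300c in 40.6% and 0.328%. T-gated cells were low in both genes (12.9 and 0.996 CPM), and other classes held more. Ly6d stood at 1186 CPM in B-gated cells, and monocyte-gated cells held 144 CPM of Ly6d and 72.0 CPM of Cd300c. Before thinning, 61 and 57 of the 69 cells had a UMI of them.

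Further genes in this group belong to several functions. Cacna1e, a voltage-gated calcium channel, stood at 362 CPM against 3.05 CPM, and Grm8, a glutamate receptor, at 431 CPM against 10.9 CPM. Both are better known from neurons, yet they had UMIs in 35 and 38 of the 69 cells. Atp2a1, a calcium pump of the endoplasmic reticulum known from muscle, stood at 145 CPM against 1.74 CPM, Atp1b1, a sodium pump subunit, at 366 CPM against 19.7 CPM, and Slc41a2, a magnesium transporter, at 174 CPM against 5.12 CPM. Slpi, a secreted protease inhibitor, stood at 297 CPM against 7.51 CPM, and Nucb2, a calcium-binding protein of the secretory pathway, at 348 CPM against 19.8 CPM. Mctp2, a membrane protein with C2 domains, had UMIs in 59 cells (597 CPM against 18.6 CPM). Upb1, an enzyme of pyrimidine breakdown, stood at 130.3 CPM against 1.74 CPM, and Pir, an iron-binding nuclear protein, at 148 CPM against 1.52 CPM. The remaining names of the group were Smim5 (106-fold), Sh3bgr (131-fold), Eldr (86.9-fold), Rell1 (16.6-fold) and Fcrla (24.7-fold), an Fc receptor-like protein of B cells. All of these names were higher in the 59 Apoe-low cells than in the full set.

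**Figure D2:**
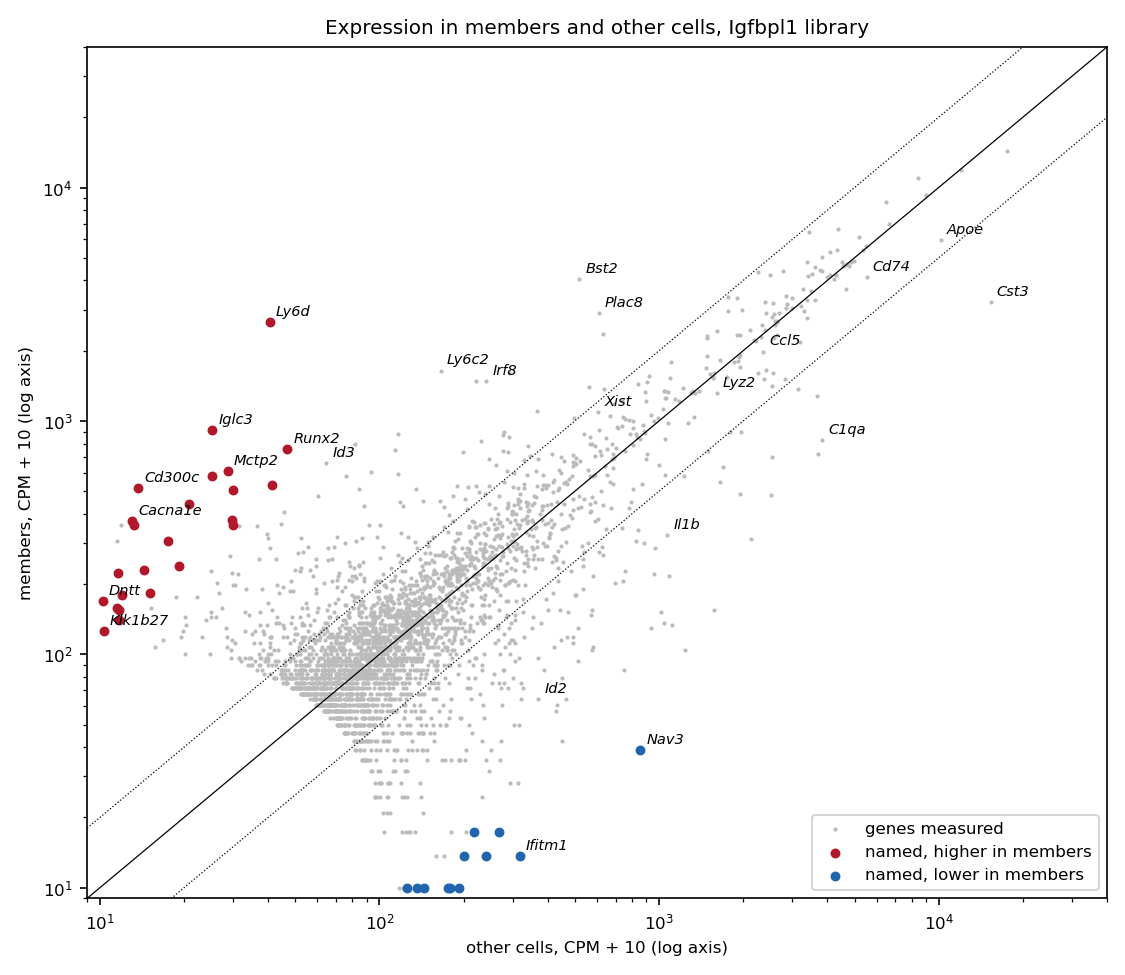
Each point is 1 measured gene, genes of the rule left out, with its level in the other cells of the Igfbpl1 library on the horizontal axis and in the 69 plasmacytoid cells on the vertical axis (CPM + 10, log axes). The solid line marks equal levels and the dotted lines a 2-fold difference. Ly6d, at 2643 against 30.5 CPM, lies farthest above the line.

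Klk1b27, a kallikrein gene close to Klk1 on chromosome 7, stood at 116 CPM against 0.327 CPM, the latter resting on 3 UMIs (355-fold, 111 to 1811). Their GENCODE transcripts share 85.1% of 880 aligned bases. UMIs of Klk1b27 occurred in 18 cells, of which 12 also had Klk1 UMIs and 6 did not. Reads of such near copies can be assigned to either gene, so the level of Klk1b27 is uncertain. Of the other kallikreins looked up, Klk8, known from neurons, stood at 7.24 CPM against 57.3 CPM. Cox6a1, the widely expressed counterpart of Cox6a2, stood at 261 CPM against 141 CPM, and 0 of 12 cytochrome c oxidase genes measured, Cox6a2 itself left out, were 2-fold higher or lower.

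On the lower side the genes came from other classes of the sort. Nkg7 and the T cell receptor chain Trbc2, known from cytotoxic lymphocytes and T cells, had 0 UMIs in the 69 cells (a limit of 10.9 CPM), against 169 and 116 CPM, and were at least 15.6-fold and 10.7-fold lower. Nav3, Csmd3, Rapgef5 and Fgf13, which stood at 1873, 492, 559.8 and 379.7 CPM in microglia-gated cells, stood at 29.0, 3.62, 7.24 and 7.24 CPM. Pcp2, Gng13 and Pcp4 of retinal neurons, and Chn2, had 0 UMIs. Ifitm1, an interferon-induced membrane protein, stood at 3.62 CPM, from 1 UMI, against 307 CPM, and the chemokine Cxcl10 at 3.62 CPM, from 1 UMI, against 191 CPM.

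Among transcription factors known for the lineage, 5 of 11 measured were at least 2-fold higher and 0 lower, beside 9.78% and 10% of all genes. Their median log2 ratio was 0.64, beside 0.07 for all genes. The higher factors were Tcf4, Irf8, Irf7, Runx2 and Bcl11a. Irf7 stood at 293 CPM against 139 CPM in other cells, of which microglia-gated cells held 70.5 CPM. It was not particular to these cells. Class II Apoe-high cells held 331 CPM, monocyte-gated cells 328 CPM, B-gated cells 250 CPM and class II Apoe-low cells 235 CPM. Irf8, required for dendritic cell development, had UMIs in 69 of 69 cells, from 1 to 16 with a median of 5, and stood at 1474 CPM against 231 CPM (6.37-fold, 5.71 to 7.08). Runx2, which is known to help these cells leave the bone marrow, stood at 749 CPM against 36.7 CPM (20.4-fold), and Bcl11a, which upholds Tcf4 expression, at 496 CPM against 20.03 CPM (24.8-fold). Spib, an Ets factor of the lineage, was too low to be counted as measured, with 25 UMIs in 17 cells, at 90.5 CPM (58.6 to 134) against 4.46 CPM. Zeb2 and Mef2c, at 757 and 684 CPM, were as abundant in other cells (694 and 679 CPM).

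Among factors of conventional dendritic cells, 2 of 4 measured were at least 2-fold lower than in other cells (Id2 and Klf4) and 0 higher. The shares of all genes were 10% and 9.78%. Id2 stood at 54.3 CPM (30.4 to 89.6), from 15 UMIs in 11 cells, against 360.1 CPM in other cells and 986 CPM in migratory dendritic cells, gated on Ccr7, Fscn1, Ccl22 and Cacnb3. Batf3 stood at 29.0 CPM against 524 CPM in the migratory cells, and Zbtb46 at 7.24 CPM, from 2 UMIs, against 111 CPM. Against all other cells Zbtb46 was about level (11.1 CPM), and Irf4, too low to be counted as measured, stood at 47.1 CPM against 13.2 CPM. Of 7 measured genes known from conventional dendritic cells, 3 were higher and 2 lower, beside 9.78% and 10% of all genes. The higher ones were Flt3, Clec9a, a receptor for dead cells (130.3 against 14.04 CPM), and Clec10a, a lectin (141 against 23.1 CPM). Against class II Apoe-low cells 2 of 12 measured were higher and 7 lower, beside 20.1% and 6.21% of all genes. Those cells held 108 CPM of Clec10a, and migratory dendritic cells held 207 CPM of Flt3. Id3, another inhibitor of E proteins, was in contrast higher than in other cells (652 against 54.5 CPM), with UMIs in 40 cells. Tcf12, a further E protein, stood at 518 CPM against 180.03 CPM, while Tcf3 had 2 UMIs.

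Of the surface and secreted genes known for the lineage, 21 of 27 measured were at least 2-fold higher and 1 lower, beside 9.78% and 10% of all genes. Their median log2 ratio was 3.03, and 30 of 30 had a UMI in these cells. Without the Apoe-high cells 22 were higher and 1 lower. Several of those genes were put on the list because they mark the lineage, so the count describes the label. Plac8, a small cysteine-rich protein, stood at 2896 CPM against 597 CPM, Ly6c2 at 1633 CPM against 156 CPM and Ly6a, which is induced by interferon, at 1597 CPM against 280.3 CPM. Plac8 was also high in class II Apoe-low cells (1941 CPM) and in monocyte-gated cells (2687 CPM), which it helps to gate. Rnase6, a secreted ribonuclease, stood at 786 CPM against 71.5 CPM. Cd7, a surface protein of lymphocytes, stood at 351 CPM against 34.3 CPM. Cadm1, the adhesion molecule of conventional dendritic cells, was the lower gene (36.2 against 141 CPM). Of 6 endothelial and erythroid genes listed in the counts, 3 had UMIs in these cells, 39 in all (141 CPM against 45.8 CPM). Among them, Cdh5 (VE-cadherin), known from endothelium, had 19 UMIs in 16 cells (68.8 CPM against 0.762 CPM). The endothelial genes Cldn5 and Flt1 had 0 UMIs. Klrd1 (CD94), a lectin of natural killer cells, stood at 297 CPM against 293 CPM, while Ncr1, Klre1 and Eomes had 0 UMIs.

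**Figure D3:**
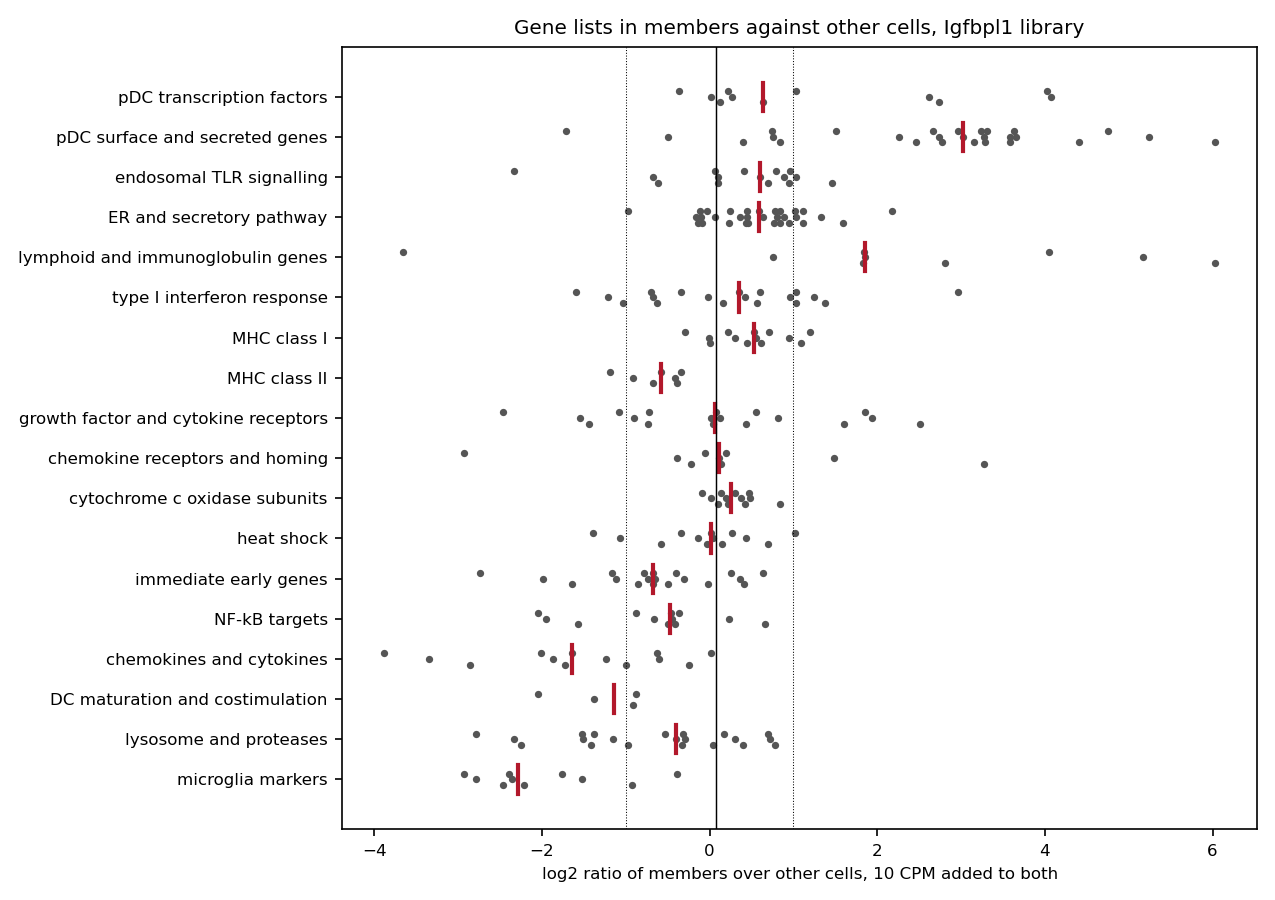
Log2 ratio of plasmacytoid cells (members, pDC) over other cells (10 CPM added to both) for each measured gene of 18 lists, leaving out genes of the rule. Red bars are list medians, the solid line is the median of all measured genes (0.07) and dotted lines mark 2-fold. Surface and secreted genes of the lineage have a median of 3.03 and chemokines and cytokines one of -1.64.

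Of 20 genes of nucleic acid sensing looked up, 15 were high enough to be counted as measured. Myd88, Irak1 and Irak4, with 9, 5 and 4 UMIs, were not. Tlr7 was the most abundant Toll-like receptor. Tlr7, the receptor for single-stranded RNA, had 0 to 5 UMIs per cell, with UMIs in 31 of 69 cells. It stood at 185 CPM (137 to 243) against 60.7 CPM in other cells (3.04-fold, 2.24 to 4.05) and 113 CPM (103 to 124) in microglia-gated cells. Tlr9, the receptor for unmethylated DNA, had 2 UMIs (7.24 CPM, 0.877 to 26.2) against 4.46 CPM, a difference not detectable at this depth. Among the other 10 receptors looked up, Tlr2 stood at 25.3 CPM against 109.6 CPM and none of the rest had more than 2 UMIs in these cells. Unc93b1, which carries these receptors to endosomes, stood at 521 CPM against 390.2 CPM. Hsp90b1, their chaperone in the endoplasmic reticulum, stood at 673 CPM against 360.4 CPM, and Irf7, the factor that switches on interferon genes, at 293 CPM against 139 CPM. Class II Apoe-high and monocyte-gated cells held at least as much Irf7 (331 and 328 CPM). Of 15 measured genes of this pathway, 2 were at least 2-fold higher (Tlr7 and Irf7) and 1 lower, the protease Lgmn (206 against 1079 CPM), shares close to those of all genes. Without the Apoe-high cells the counts were 4 and 1.

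No transcript of an interferon gene was seen in the 69 cells. Of 21 interferon genes looked up, only Ifnb1 and Ifng are listed in the counts, and both had 0 UMIs, which allows up to 10.9 CPM. Among 19 measured genes of the type I interferon response, 5 were at least 2-fold higher (Irf7, Stat2, Bst2, Trim30a and the receptor subunit Ifnar2) and 3 lower (Isg15, Ifi204 and Ifitm3), with a median log2 ratio of 0.36. Of all genes 9.78% were higher and 10% lower, so the share that was lower was near that of all genes. Without the Apoe-high cells 6 were higher and 5 lower. Irf7, as given above, was as high in class II Apoe-high and monocyte-gated cells. Ifnar2 stood at 514 CPM against 211 CPM. Isg15, one of the strongest targets of interferon, stood at 72.4 CPM against 181 CPM, and Ifit1, Ifit2, Ifit3 and Rsad2 each had 3 to 5 UMIs in all.

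Genes of the endoplasmic reticulum and secretory pathway were higher in 7 of 31 measured cases and lower in 0, beside 9.78% and 10% of all genes (median log2 ratio 0.59, beside 0.07). Xbp1, the factor that expands the secretory apparatus, stood at 308 CPM against 60.5 CPM (5.09-fold, 3.999 to 6.399). Sec61b, a subunit of the channel through which proteins enter the reticulum, had UMIs in 69 of 69 cells and stood at 1089.8 CPM (970.1 to 1220.1) against 356 CPM. Manf, a stress-induced secreted factor, stood at 308 CPM against 117 CPM. Mzb1, a chaperone of immunoglobulin-secreting cells, stood at 221 CPM against 4.35 CPM (50.7-fold), with UMIs in 25 cells. The plasma cell genes Sdc1, Prdm1 and Tnfrsf17 had 0 UMIs. Without the Apoe-high cells 8 of the 31 were higher and 1 lower.

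Lymphoid genes formed a further group, with 7 of 9 measured at least 2-fold higher and 1 lower, beside 9.78% and 10% of all genes. Their median log2 ratio was 1.86, beside 0.07 for all genes. Iglc3, an immunoglobulin lambda constant segment (chr16:19065230-19065681, minus strand), had 0 to 20 UMIs per cell, was present in 54 of 69 cells and stood at 902 CPM (793 to 1021). It stood at 558 CPM in the 55 B-gated cells, selected on B cell genes, while the 15.2 CPM over all 3261 other cells includes 87 of 140 UMIs from the B-gated cells. Iglc2 and Iglc1 had the opposite order, at 275 and 57.9 CPM in plasmacytoid cells against 1424 and 1757 CPM in B-gated cells. Transcripts of Iglc2 and Iglc3 share 95.3% of 450 aligned bases, so reads may be split between them, and their ratio is uncertain. Ighm, the mu heavy chain, stood at 424 CPM and had UMIs in 51 cells, 40 of which also had Iglc3 UMIs, against 1045 CPM in B-gated cells.

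Dntt, the polymerase that adds bases at the joints of rearranging receptor genes, was seen in 29 of 69 cells with 0 to 4 UMIs each, 44 in all. It stood at 159 CPM (116 to 214), while the other 3261 cells held 2 UMIs, a ratio of 732 (191 to 6232). Cd8b1 had UMIs in 46 cells (568 CPM against 117 CPM in T-gated cells), Cd8a in 14 cells (116 CPM) and Cd4 in 9 cells (50.7 CPM). Of 9 B cell markers 3 had UMIs in the 69 cells, 7 in all, and of 9 T cell markers 5 had UMIs, 13 in all over 12 cells. Cd79a, Ms4a1, Trac and Trbc2 had 0 UMIs, Pax5 1 and Ebf1 3, and the rule itself had removed cells with 2 or more Cd3 UMIs. Il7r, the interleukin-7 receptor of lymphoid precursors, stood at 304 CPM against 76.5 CPM, and Flt3, the growth factor receptor of dendritic cell development, at 181 CPM against 23.4 CPM. Both were at least 2-fold higher than in class II Apoe-low and B-gated cells. Neither was 2-fold higher than in migratory dendritic cells, which held 207 CPM of Flt3.

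**Figure D4:**
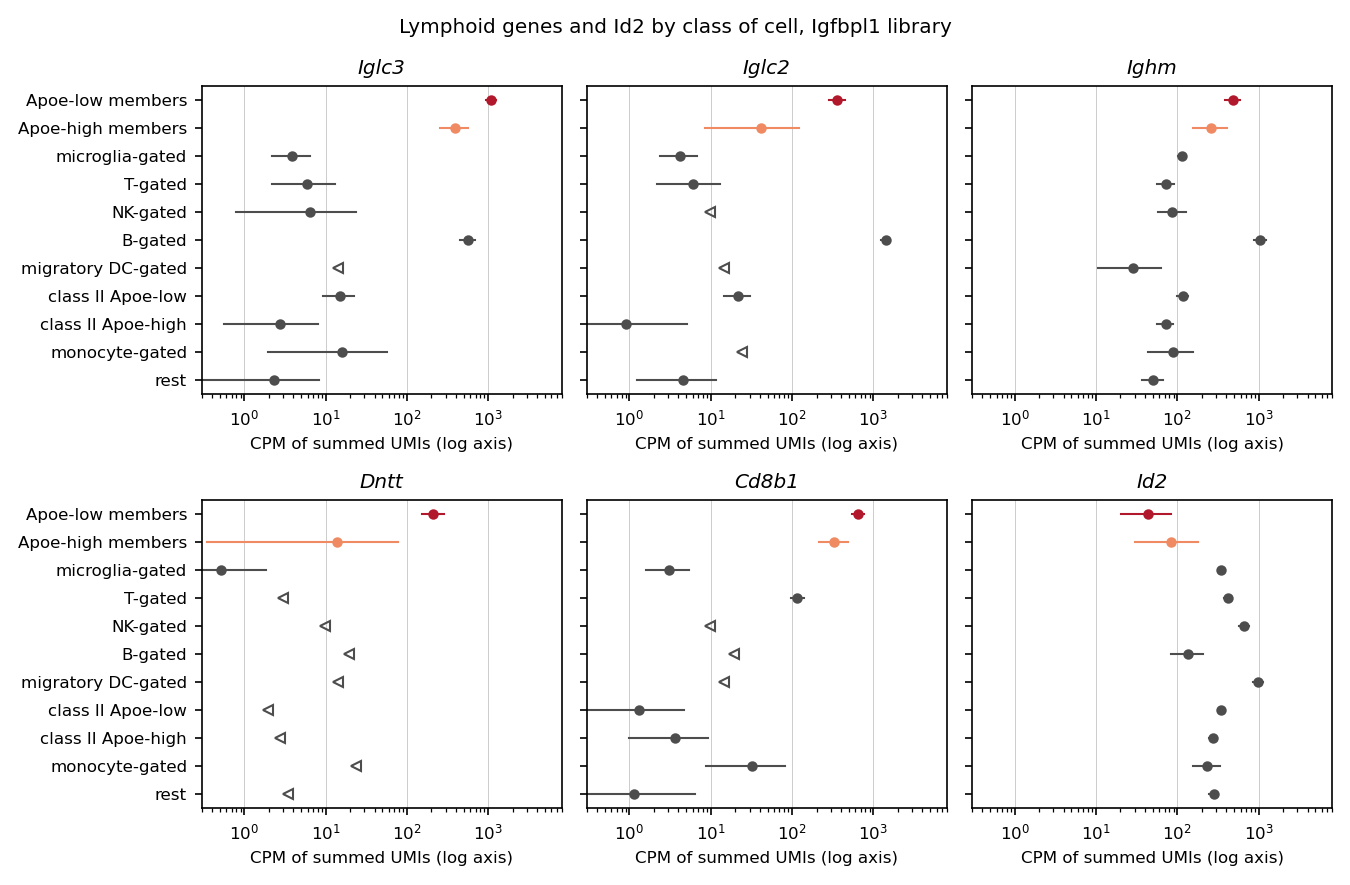
Expression of 5 lymphoid genes and Id2 (CPM of summed UMIs, log axis, with exact Poisson 95% intervals; open triangles mark the limit that 0 UMIs allow) by class in the Igfbpl1 library. Iglc3 was 902 CPM over all 69 plasmacytoid cells and 558 CPM in B-gated cells, Iglc2 275 and 1424 CPM, and Id2 was 54.3 CPM against 986 CPM in migratory dendritic cells.

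MHC class II genes present antigen to helper T cells. The sum of 10 such genes had a median of 60.1 UMIs per 10000 over the 69 cells and of 9.44 over the other cells, while the summed counts of other cells include the classes gated on class II genes. Cd74, the invariant chain, had 0 to 115 UMIs per cell with a median of 10 and stood at 4124 CPM (3888 to 4370) against 5513 CPM in other cells and 701 CPM in microglia-gated cells. In class II Apoe-low cells, a class gated on high class II genes and low Apoe, it stood at 17460.4 CPM and is one of the genes that gate them. H2-Eb1 was the 1 of 7 measured class II genes that was 2-fold lower than in other cells (1365 against 3118 CPM). Without the Apoe-high cells H2-Ab1 made it 2, while 10% of all genes were lower in the full set. Of 13 measured class I genes 2 were higher, a small share like that of all genes: H2-Q7 (597 against 276 CPM) and H2-T23 (768 against 329 CPM), and 3 were higher without the Apoe-high cells. Migratory dendritic cells held more H2-Q7 (1000 CPM) and about as much H2-T23 (784 CPM). Against them 0 of 14 class I genes were higher and 5 lower, beside 24.5% and 15.8% of all genes. The costimulatory genes Cd86 (145 against 391 CPM) and Cd83 (109 against 480.5 CPM) were the 2 of 4 measured maturation genes that were lower (3 without the Apoe-high cells), and Ccr7, Cd80 and Cd40 had 6, 3 and 2 UMIs. In migratory dendritic cells, which Ccr7 helps to gate, it stood at 1674 CPM, against 21.7 CPM here.

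Chemokines and cytokines were mostly lower, with 8 of 13 measured at least 2-fold lower and 0 higher (median log2 ratio -1.64). Without the Apoe-high cells Ccl3 made it 9, with a median of -2.16. Of all genes, 10% were lower and 9.78% higher in the full set, with a median of 0.07. Il1b stood at 315 CPM against 1060 CPM, but at 34.4 CPM in the 59 Apoe-low cells and 1102 CPM in the 10 Apoe-high cells. Ccl2 likewise had 33 UMIs, all of them outside the 59 Apoe-low cells. Ccl4, a chemokine for T cells and monocytes, was an exception at 4579.95 CPM (4331 to 4839) against 4522 CPM, with 0 to 111 UMIs per cell and UMIs in 53 cells. Il12a, the p35 subunit of interleukin-12, had 18 UMIs in 15 cells (65.2 CPM, 38.6 to 103) against 1.31 CPM, while Il12b, its partner, had 2 UMIs. Heat shock genes had a median log2 ratio of 0.01.

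The cells were also compared with 3 gated classes, 2 of them with dendritic or class II genes and 1 of B cells. Likeness was not ranked, and monocyte-gated cells, which were not compared, held more Cd300c (72.0 CPM) than any of the 3. Monocyte-gated cells also held Ly6c2 at 1136 CPM, but it is one of the genes that gate them. Against 387 class II Apoe-low cells, 537 of 2672 measured genes were higher (20.1%) and 166 lower (6.21%). The median gene was 0.34 higher on the log2 scale there, and with scaling by that median 324 were higher and 259 lower. Without the Apoe-high cells the counts were 585 and 195. Ly6d (141-fold, 97.3 to 212) and Cd8b1 (439-fold, 119.7 to 3661, against 2 UMIs) led the higher genes. S100a4, a calcium-binding protein of activated leukocytes, stood at 32.6 CPM against 1299 CPM, Ifitm2 at 119.5 CPM (82.2 to 168) against 1507 CPM, and Ifitm6 at 3.62 CPM, from 1 UMI, against 316 CPM. Il1r2, the decoy receptor of interleukin-1, and the chemokine Cxcl9 had 0 UMIs and were at least 21.4-fold and 19.9-fold lower.

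Against 84 migratory dendritic cells, 702 of 2867 genes were higher (24.5%) and 453 lower (15.8%), or 550 and 572 when scaled by the median ratio (log2 0.23), and 687 and 485 without the Apoe-high cells. Ly6d, Iglc3, Mctp2, Cd8b1 and Cd300c had 0 UMIs in the migratory cells, so Ly6d was at least 183-fold and Iglc3 at least 62.5-fold higher. Of 13 measured maturation and costimulation genes 12 were lower, among them Socs2, a feedback inhibitor of cytokine signals (7.24 against 750.3 CPM). Tnfrsf4 (OX40), with 0 UMIs against 452 CPM, was at least 41.6-fold lower. Of 29 measured secretory genes 18 were higher and 1 lower. Ccl5 stood at 1973 CPM against 35875 CPM.

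Against 55 B-gated cells, 429 of 2930 genes were higher (14.6%) and 226 lower (7.71%), or 479 and 267 without the Apoe-high cells. The higher genes were led by Cd8b1, Grm8, Atp1b1, Cd7, Smim5 and Dap, each with 0 UMIs in B-gated cells and thus at least 15.8-fold higher. Bank1, an adaptor of the B cell receptor, had 0 UMIs against 943 CPM (at least 86.8-fold lower), and Fcer2a and Fcmr had 0 UMIs as well. The B-gated cells themselves held Apoe at 18263 CPM and Lyz2 at 3803 CPM, and the part of these transcripts in the comparison was not tested. Ly6d, at 1186 CPM in B-gated cells, was shared by both classes.

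Levels varied among the 69 cells more for some genes than for others. After thinning to 1000 UMIs, the variance over the mean had a median of 1.15 over 325 genes with 30 or more thinned UMIs, where counting alone gives about 1. The highest values were 54.1 for Ccl5, 20.7 for Apoe, 10.7 for Ccl4, 5.76 for Lyz2, 5.25 for Malat1, 4.81 for Cst3, 4.30 for Ly6d and 4.13 for Hspb1. Of the 545 UMIs of Ccl5, 88.1% lay in 3 cells and 423 in a single cell. Of the 1645 UMIs of Apoe 52.2%, and of the 360 UMIs of Lyz2 59.2%, lay in 3 cells. Apoe and Lyz2 thus follow the split described above, and without the Apoe-high cells they fell under the minimum of 30 thinned UMIs, while Ccl5 kept 58.7 and Ccl4 12.6. Bst2, Irf8 and Mctp2 were more even, with 8.87%, 11.5% and 12.7% of their UMIs in 3 cells.

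**Figure D5:**
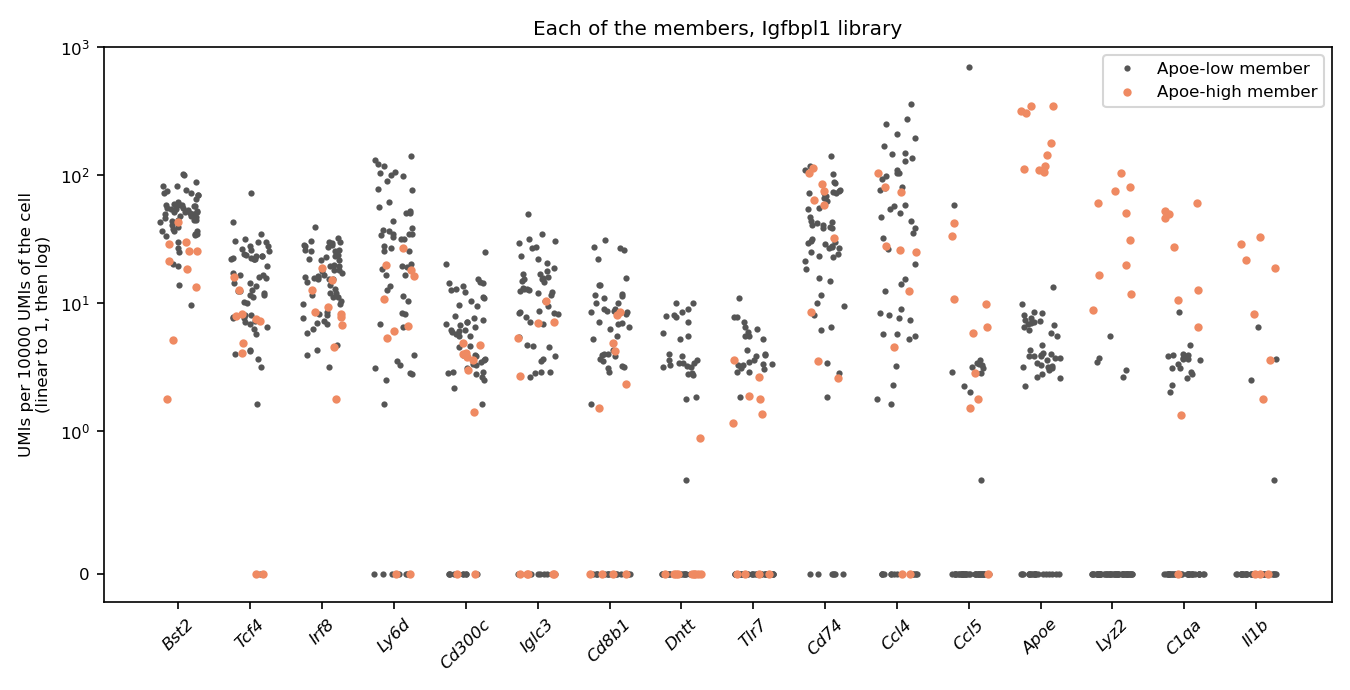
UMIs per 10000 UMIs of the cell for 16 genes in each of the 69 plasmacytoid cells of the Igfbpl1 library (1 point per cell; linear to 1, then log). The 10 Apoe-high cells hold nearly all Lyz2 and Il1b. Bst2 had UMIs in every cell, and 1 cell holds 423 of 545 Ccl5 UMIs.

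Sex-linked transcripts were uneven in these cells. Xist, which coats the inactive X chromosome, had UMIs in 65 of 69 cells and stood at 1079 CPM against 595 CPM, a log2 ratio of 0.85 that was 1.02 without the Apoe-high cells. Of 66 cells with either Xist or Y-linked UMIs but not both, 64 were Xist-only (97.0%, 89.5 to 99.6%) and 2 Y-only. The same share was 96.7% in T-gated and 95.9% in class II Apoe-low cells, but 56.3% (53.1 to 59.4%) in microglia-gated and 70.0% (50.6 to 85.3%) in B-gated cells. Within Xist-only cells the level of Xist was alike, at 1154 CPM (1026 to 1294) in plasmacytoid and 1143 CPM (1113 to 1174) in other cells. Among those other cells it was 1665 CPM in microglia-gated and 553 CPM in class II Apoe-low cells. The labels do not state the sex of the mice. Igf1r, the receptor for insulin-like growth factor 1, had 23 UMIs in 17 cells (83.3 CPM) against 53.7 CPM, a ratio of 1.55 whose interval (0.975 to 2.36) includes equality. Igfbpl1 itself is listed in neither library. Ptprc, which encodes the CD45 used for the sort, had UMIs in 59 cells and stood at 833 CPM against 635 CPM.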

How the data were processed

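The authors deposited whole-number counts of UMIs, 1 matrix for each library. Cell Ranger 3.1 and mm10 stand in the submitters' processing notes. How cells were filtered before that is not stated in them. A gene listed for 1 library only was set to 0 in the other. Cells of a class were summed and divided by the class total (CPM). Log2 ratios had 10 CPM added, and folds had nothing added. No cell was removed. Doublets were called with Scrublet in scanpy 1.11.5 (62 of 3330 and 6 of 1055 cells, 1 of them among the 73) and kept. Clusters came from Leiden clustering (resolution 0.8, 30 components, 15 neighbours). Classes other than the plasmacytoid cells were gated on marker UMIs in a fixed order, each cell going to the first gate it passed. A group at 0 UMIs was given a limit of 3 UMIs over the group. Variation used cells thinned to 1000 UMIs. Intervals were computed with scipy 1.17.1 and figures with matplotlib 3.10.9 under Python 3.11.15.

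Named were at most 24 higher and 12 lower genes against other cells and 6 per direction against each class, by log2 ratio. Higher genes needed UMIs in 25% of the cells and 30 UMIs, and genes of mitochondria, ribosomal proteins and clone names were passed over. Per list, at most 4 genes of highest level and 3 of largest ratio were eligible. Markers, interferon genes, Toll-like receptors, Igf1r, Igfbpl1, Ptprc and sex-linked genes were named in any case, as were at most 8 of largest variance over mean. Spib, Mef2c, Batf3, Zbtb46, Tcf3, Ly6a, Rnase6, Cadm1, Trim30a, Isg15, Ifi204, Ifit1, Ifit2, Ifit3, Rsad2, Iglc2, Cd8a, Cd4, Ccr7, Cd80, Cd40, Il12b and the genes given as at 0 UMIs in the 69 cells (Flt1, Klre1, Eomes, Sdc1, Prdm1, Tnfrsf17, Ms4a1 and Trac) fall outside this rule and were chosen after their values were seen. Myd88, Irak1 and Irak4 were likewise chosen after their values were seen. The cells, the 39 gene lists and the comparisons were chosen with earlier results of these data known. Gene positions and transcripts are those of GENCODE M21, and promoters those of RefSeq on GRCm38.p6. The calculations were tested on simulated counts.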

Additional observations from a re-analysis of the deposited data

How the results depend on the processing

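No paired analysis was possible because each group has 1 library. Leaving out the Apoe-high cells was chosen after seeing the data. The share of the Igfbpl1 library was 1.5% with a minimum of 8 UMIs and moved by less than its interval otherwise. With 50 CPM added, 184 genes were higher and 205 lower than in other cells, 290 and 105 than in class II Apoe-low cells and 240 and 132 than in B-gated cells, and 459 were higher than in migratory dendritic cells. With a minimum of 200 CPM the counts were 70 and 76, 97 and 53, 84 and 52, and 136 and 145. With 20 CPM they were 484 and 647 against other cells, and 999 and 277 against class II Apoe-low cells. Scaling by the median ratio gave 324 and 259 there. Against other cells outside the microglia gate, 180 genes were lower, 105 of them among the 313. The median log2 ratio of natural killer cell markers went from -2.38 to 0.019 with a minimum of 200 CPM, which fewer genes pass. For 48 genes and 37 lists, each counted once per alternative over up to 11 alternatives, shifts were set against the half-width of the counting interval. For a list this was the median half-width of its genes. By that measure 416 gene ratios and 330 list medians moved by less and 112 and 63 by more. A change of sign was counted apart only for log2 values of at least 1 in size, and 1 list median had one. Smaller values that changed sign are among the others. Without the Apoe-high cells the median of chemokine receptors and homing genes went from 0.11 to -0.18. That of growth factor and cytokine receptors went from 0.06 to -0.34. The limits are 1 pool per group, 69 cells, and 276204 UMIs, which keep low genes such as Tlr9 and Spib imprecise.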
